A study of Rattus norvegicus with 8 samples.

Results

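The antioxidant and glutathione enzymes described here are 59 of the 19238 genes measured in rat thoracic aorta. They were taken by name alone: every gene whose symbol begins with Gst, Gpx, Prdx or Txn, together with Nqo1, Hmox1, Srxn1, Gclc, Gclm, Gsr, Gss, Sod1, Sod2, Sod3 and Cat. They comprised 19 glutathione S-transferases, 6 glutathione peroxidases, 4 genes of glutathione synthesis and recycling, 6 peroxiredoxins and 6 genes of the thioredoxin system. The others were 11 further genes with a Txn prefix, 4 genes of superoxide and hydrogen peroxide removal, and Nqo1, Hmox1 and Srxn1. Those last 3 are grouped only as the remainder of the list. Of the 59 genes, 51 had enough counts to be tested and 8 did not.

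Total RNA was sequenced from the thoracic aorta of Goto-Kakizaki (GK) rats, a non-obese strain derived from Wistar that develops diabetes spontaneously and is labelled here as diabetic macroangiopathy. Wistar rats, labelled as controls, were the comparison. All animals were 7 to 8 weeks old, no treatment is named for either group, and each group had 4 libraries that carry the numbers 7 to 10. Strain and diabetes split the libraries in the same way, so they cannot be told apart in any value given here. Beyond the titles, the labels do not say that the libraries came from separate animals, and p-values therefore measure only the spread between these libraries, which may be technical.

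Cells remove superoxide with superoxide dismutases, which yield hydrogen peroxide, and remove peroxides with catalase, glutathione peroxidases and peroxiredoxins. Many glutathione peroxidases and the S-transferases draw on glutathione, which is built by the Gclc and Gclm subunits with Gss and kept reduced by Gsr. Most peroxiredoxins depend on thioredoxin and its reductases. The transcription factor Nrf2 is known to raise many of these genes together through the antioxidant response element, and in the arterial wall they act in smooth muscle, endothelium, adventitial cells and the fat around the vessel.

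Reference promoters were searched for the core of that element, TGACNNNGC, and for the AP-1 type site TGANTCA, on both strands, in the window from 250 bases before to 50 bases after the annotated start. The sequences are RefSeq's for the rat assembly GRCr8, so they are those of the reference animal and not of the rats sequenced. Of all 33469 promoters in the table, 12.1% held the first motif and 7.33% the second. An entry was found for 51 of the 59 genes, with 57 promoters, of which 17 (29.8%) held TGACNNNGC and 4 (7.02%) held TGANTCA; in Gstp1 and Prdx1 both motifs overlapped. Among the 7 genes that passed the test described next, Gstm7 alone held the first motif and Srxn1 alone the second. The promoters of the 3 genes that rose and of Gstm7 are shown because they carry, or do not carry, these letters, with motif matches in capitals and the sequence written on the gene's own strand.
Srxn1, chr3:161064562-161064861, plus strand: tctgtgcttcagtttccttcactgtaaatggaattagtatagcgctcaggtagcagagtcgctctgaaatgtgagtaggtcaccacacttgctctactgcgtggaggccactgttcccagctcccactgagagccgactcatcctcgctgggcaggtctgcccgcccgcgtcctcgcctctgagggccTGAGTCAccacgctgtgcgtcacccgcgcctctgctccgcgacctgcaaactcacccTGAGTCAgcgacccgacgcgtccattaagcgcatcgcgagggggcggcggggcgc
Nqo1, chr19:52220218-52220517, minus strand: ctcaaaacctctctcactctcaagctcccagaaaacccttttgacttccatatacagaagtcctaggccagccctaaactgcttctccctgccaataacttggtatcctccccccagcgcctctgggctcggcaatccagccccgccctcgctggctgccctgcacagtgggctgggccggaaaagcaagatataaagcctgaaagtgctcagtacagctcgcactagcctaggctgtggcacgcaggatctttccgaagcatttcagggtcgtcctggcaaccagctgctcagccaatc
Gstm4, chr2:198373334-198373633, minus strand: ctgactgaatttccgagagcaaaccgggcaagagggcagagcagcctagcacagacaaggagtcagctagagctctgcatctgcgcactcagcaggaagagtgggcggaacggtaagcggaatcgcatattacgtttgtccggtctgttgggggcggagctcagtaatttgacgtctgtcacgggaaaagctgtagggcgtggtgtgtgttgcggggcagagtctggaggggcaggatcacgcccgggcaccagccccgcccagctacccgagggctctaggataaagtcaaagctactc
Gstm7, chr2:198260270-198260569, minus strand: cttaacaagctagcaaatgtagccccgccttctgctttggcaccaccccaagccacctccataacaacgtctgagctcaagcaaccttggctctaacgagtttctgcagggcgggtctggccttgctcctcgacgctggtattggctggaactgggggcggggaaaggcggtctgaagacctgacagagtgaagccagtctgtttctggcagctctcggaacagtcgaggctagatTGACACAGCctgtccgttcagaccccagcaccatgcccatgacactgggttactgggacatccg
In Srxn1 the TGANTCA matches began 62 and 5 bases before the start, and in Gstm7 the TGACNNNGC match began 14 bases before it. Nqo1 and Gstm4 held neither motif in these windows. A match is a description of letters and says nothing of binding, and the lack of one covers these 300 bases only.

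Library totals ran from 13188728 to 16266151 gene counts in GK and from 11760397 to 13466170 in controls. Levels are given in CPM, the count scaled by the library total multiplied by that library's TMM scaling factor. For gene counts these factors ran from 0.826 (GK 10) to 1.18 (GK 9) in GK and from 0.920 (control 8) to 1.24 (control 9) in controls. Cell type markers did not stand at the same level in all libraries. Skeletal muscle markers summed to 15774 CPM in GK 9, against 47.5 CPM or less in the other 7 libraries. Cardiac markers stood at 1010 CPM in GK 7, 1994 in GK 8 and 515 in control 7, and at 11.02 or less elsewhere. Erythroid markers stood at 30581 CPM in control 9 and 19307 in control 8, against 2164 to 7762 elsewhere. Adipocyte markers summed to 12312 to 29238 CPM in GK and 7338 to 12041 in controls, brown adipocyte markers to 1892 to 6289 in GK and 725 to 3472 in controls, and endothelial markers to 1002 to 1248 in GK and 622 to 988 in controls. Smooth muscle markers, which define the labelled tissue, were abundant in every library at 2568 to 7616 CPM in GK and 5015 to 13360 in controls. Fibroblast markers summed to 934 to 3333 CPM in GK and 3188 to 6779 in controls. Macrophage markers summed to 309 to 512 CPM in GK and 456 to 1165 in controls, and neutrophil markers to 241 to 315 in GK and 25.9 to 165 in controls. Of the 5 tested neutrophil markers 1 lay above 0, and their median log2 fold change was -0.50. Hepatocyte markers (71.5 to 265 CPM in GK, 81.5 to 442 in controls) and mesothelial and epithelial markers (2.42 to 27.5 in GK, 9.12 to 134 in controls) were low. Of the hepatocyte markers 3 were tested, with a median log2 fold change of 1.26 against the direction of the sums. In bulk tissue, fewer cells of a type and less RNA per cell cannot be told apart.

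Genes were tested with edgeR's quasi-likelihood test across the whole table, and a gene is said to have risen or fallen in GK only where its Benjamini-Hochberg adjusted p was under 0.05. Of the 51 tested genes, 7 passed: Nqo1, Srxn1 and Gstm4 rose, and Gpx3, Gpx7, Gstm7 and Gstt3 fell. That is 13.7% of those tested, where 7.28% of the 13673 genes tested in the whole table passed (3.96% higher, 3.31% lower). The libraries of the 2 groups did not overlap for 7 of the 51, also 13.7%, against 15.6% of all genes tested, so this share was near the background. The median log2 fold change, GK over control, was 0.23 over the 51 genes and 0.00 over all genes tested, with 33 of the 51 above 0 and 18 below. The rises lay in the group of Nqo1, Hmox1 and Srxn1 and among the transferases. The falls lay among the transferases and the peroxidases, as the plot of fold changes by family shows. The 44 genes that did not pass had a median of 0.23.

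**Figure D1:**
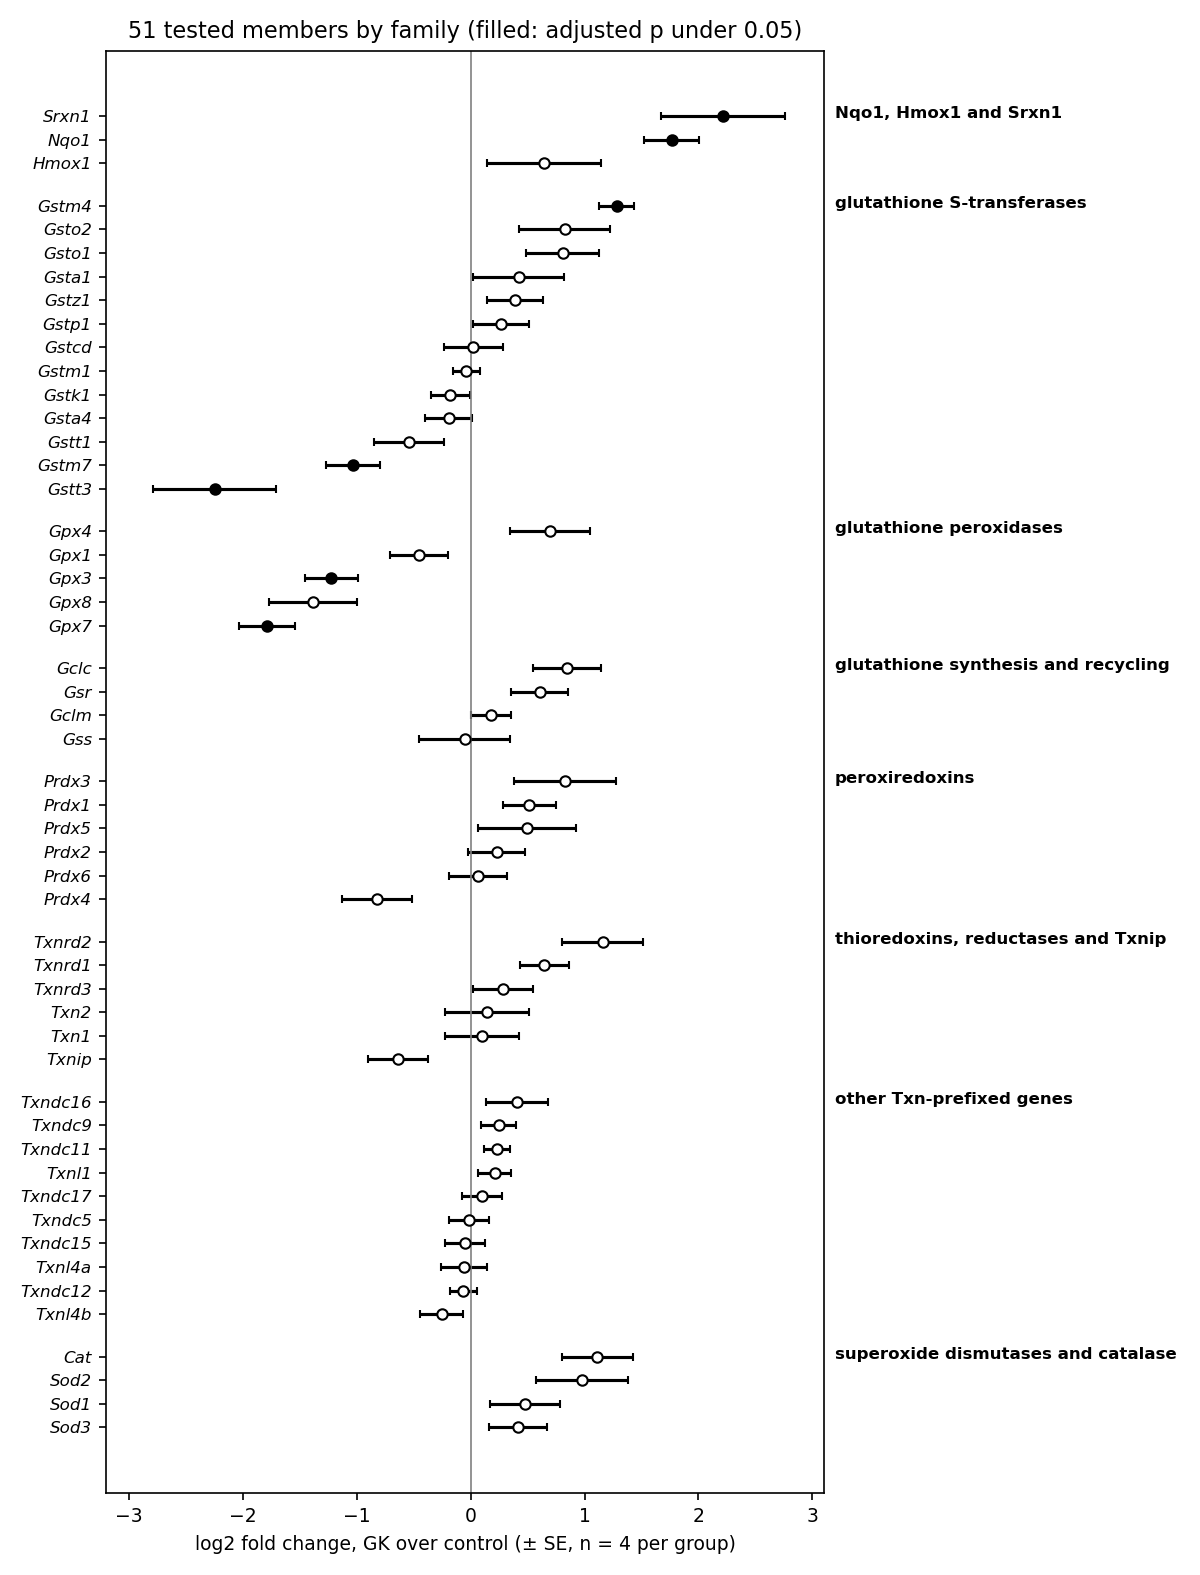
Log2 fold changes, GK over control, with their standard errors (n = 4 libraries per group) for the 51 tested genes, grouped by family; filled points passed the test at an adjusted p under 0.05. The filled points above 0 are Srxn1, Nqo1 and Gstm4, those below 0 are Gstm7, Gstt3, Gpx3 and Gpx7, and 4 of the 5 glutathione peroxidases lie below 0.

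Nqo1 and Srxn1 both rose, while the haem-degrading Hmox1 did not pass the test. Nqo1, which reduces quinones with NAD(P)H, lies on chromosome 19 (38422164 to 38437180; the sources used here name no rat build for the deposited gene positions). It stood at 20.9, 28.7, 17.5 and 37.3 CPM in GK 7 to 10, against 7.93, 7.58, 8.51 and 6.69 CPM in controls 7 to 10. Every GK library lay above every control, and the controls lay close together. The log2 fold change was 1.76 ± 0.24 (SE, n = 4 per group; edgeR adjusted p = 0.00946), or 3.40-fold. Srxn1, the sulfiredoxin that restores overoxidised peroxiredoxins, lies on chromosome 3 (147609095 to 147632801) and had 7.81, 10.02, 2.71 and 12.2 CPM in GK 7 to 10, against 1.98, 3.14, 0.938 and 1.02 CPM in controls 7 to 10. GK 9 fell below control 8, so the groups overlapped, and the other 3 GK libraries lay above all controls. It had the largest rise among the 51 genes, at 2.22 ± 0.54 on the log2 scale (edgeR adjusted p = 0.0470), but it passed in only 8 of 17 alternatives, with adjusted p-values from 0.00137 to 0.845 across them. The call was lost when GK 7, GK 8, GK 10, control 7, control 9 or control 10 was left out (edgeR adjusted p from 0.0867 to 0.138). The Srxn1 locus shares 5312 bases with a long non-coding transcript described below, which had 5407 counts in GK and 1090 in controls. How reads were divided between that transcript and Srxn1 is uncertain. Hmox1 had 35.2, 13.9, 7.55 and 10.9 CPM in GK 7 to 10, against 17.3, 6.38, 11.2 and 8.19 CPM in controls 7 to 10, a difference carried mostly by GK 7 (log2 fold change 0.65 ± 0.50, edgeR adjusted p = 0.429).

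**Figure D2:**
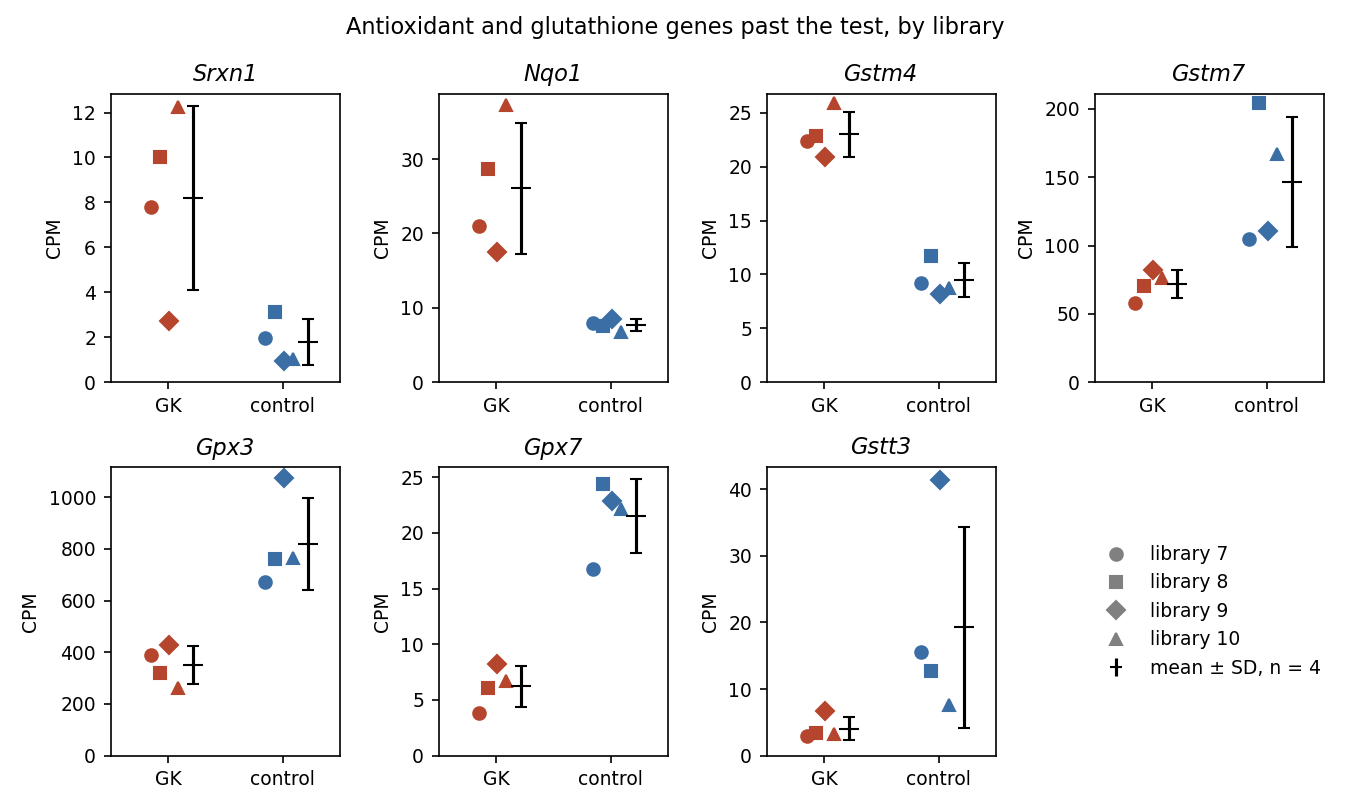
CPM of the 7 genes that passed the test in each GK and control library, with the marker giving the library number and the bar the mean ± SD (n = 4 per group); every axis starts at 0. GK lies wholly above the controls for Nqo1 and Gstm4 and wholly below them for Gpx3, Gpx7, Gstm7 and Gstt3, while for Srxn1 GK 9 (2.71 CPM) lies below control 8 (3.14 CPM).

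Glutathione S-transferases, which join glutathione to reactive compounds, moved in opposite directions within the same class. Of 19 transferases, 13 were tested, and 1 rose and 2 fell, with a family median of 0.02. Gstm4, of the mu class, on chromosome 2 (210833884 to 210839295), stood at 22.4, 22.9, 20.9 and 25.9 CPM in GK 7 to 10, against 9.25, 11.7, 8.18 and 8.73 CPM in controls 7 to 10. Its spread within each group was small beside the gap between them, and it had the lowest adjusted p of the 51 genes (log2 fold change 1.28 ± 0.15, edgeR adjusted p = 0.00670). Gstm7, also of the mu class and on the same chromosome (210720704 to 210782856), was at 58.2, 70.1, 81.9 and 76.3 CPM in GK 7 to 10, against 105, 204, 111 and 167 CPM in controls 7 to 10. All GK libraries lay below all controls, with a log2 fold change of -1.03 ± 0.24 (edgeR adjusted p = 0.0381). It passed in 10 of 17 alternatives and not when GK 7, GK 8, GK 10, control 8 or control 10 was left out (edgeR adjusted p from 0.0610 to 0.119). Its locus in the table spans those of Gstm3, Gstm6 and Gstm6l, and mu-class genes are close copies of each other, so how reads were divided among them is uncertain; those 3 genes had at most 26 counts in a group, as given at the end of this family.

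Gstt3, of the theta class, on chromosome 20 (13817795 to 13825475), had 2.92, 3.36, 6.65 and 3.25 CPM in GK 7 to 10, against 15.5, 12.7, 41.4 and 7.64 CPM in controls 7 to 10. The controls differed widely among themselves, control 9 being the highest and control 10 close to GK 9. Its log2 fold change was -2.25 ± 0.54 (edgeR adjusted p = 0.0441), the largest fall among the 51 genes, and passed in 7 of 17 alternatives. Among the 8 libraries, leaving out any except GK 9 ended the call (edgeR adjusted p from 0.0581 to 0.133). Gstt1, of the same class, was at 6.22 ± 1.15 CPM in GK and 9.07 ± 3.47 CPM in controls (SD, n = 4 each) and did not pass (edgeR adjusted p = 0.289).

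Gstp1, the pi-class enzyme, was the most abundant transferase per length. It stood at 70.0, 91.8, 78.8 and 148 CPM in GK 7 to 10, against 68.7, 101, 77.8 and 76.2 CPM in controls 7 to 10, and only GK 10 lay above the controls. Its log2 fold change was 0.26 ± 0.24 (edgeR adjusted p = 0.509). Gsto1, of the omega class, averaged 63.8 ± 25.4 CPM in GK and 36.5 ± 9.79 CPM in controls and did not pass with all libraries (edgeR adjusted p = 0.1504); its locus overlaps that of Gsto2, which averaged 1.06 ± 0.123 CPM in GK and 0.602 ± 0.308 CPM in controls. The other tested transferases, Gsta1, Gsta4, Gstcd, Gstk1, Gstm1 and Gstz1, had log2 fold changes between -0.20 and 0.42, and the loci of Gsta1 and Gstz1 overlap those of Gsta3 and Pomt2. Untested transferases had few counts, given as sums over 4 libraries in GK and in controls: 21 and 24 for Gsta3, 26 and 11 for Gstm6 (19 of the 26 in GK 9), 1 and 4 for Gstm3, 1 and 1 for Gstm6l, 2 and 0 for Gsta5, and 2 and 0 for Gstt4.

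Glutathione peroxidases had the lowest median of the 8 families. Many of these enzymes reduce hydrogen peroxide or lipid peroxides at the cost of glutathione, though not every member does. Of 6 genes 5 were tested, 2 fell and none rose, 4 of the 5 log2 fold changes were below 0, and the median was -1.22. Gpx3, the secreted selenoenzyme of plasma, on chromosome 10 (40247436 to 40255422), stood at 389.5, 319, 429.7 and 262 CPM in GK 7 to 10, against 673, 759, 1076 and 763 CPM in controls 7 to 10. All GK libraries lay below all controls (log2 fold change -1.22 ± 0.23, edgeR adjusted p = 0.0228), and it passed in 12 of 17 alternatives, but not without GK 7, GK 8, GK 10 or control 10 (edgeR adjusted p from 0.0632 to 0.0916). Gpx7, a peroxidase of the endoplasmic reticulum without selenocysteine, on chromosome 5 (128001761 to 128009735), had 3.80, 6.11, 8.26 and 6.72 CPM in GK 7 to 10, against 16.7, 24.4, 22.9 and 22.1 CPM in controls 7 to 10. The highest GK library lay well below the lowest control, and the log2 fold change was -1.79 ± 0.24 (edgeR adjusted p = 0.00928).

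Gpx8, the membrane-bound relative of Gpx7 in the same compartment, had 5.91, 7.48, 15.6 and 6.34 CPM in GK 7 to 10, against 12.6, 23.8, 33.4 and 23.0 CPM in controls 7 to 10. GK 9 lay above control 7 and the other 3 GK libraries lay below all controls, and the gene did not pass (log2 fold change -1.39 ± 0.39, edgeR adjusted p = 0.0638). Gpx4, which reduces lipid hydroperoxides in membranes, was the only tested peroxidase with a positive value. It had 352, 334, 154 and 357 CPM in GK 7 to 10, against 190.3, 285, 111 and 151 CPM in controls 7 to 10, so that 3 GK libraries stood above all controls and GK 9 stood among them. Its log2 fold change was 0.70 ± 0.35 (edgeR adjusted p = 0.236), and its locus overlaps that of Sbno2.

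Gpx1, the cytosolic enzyme, which is abundant in red cells, was at 106 to 131 CPM in GK and 96.4 to 232 CPM in controls (edgeR adjusted p = 0.281). Its highest levels, 232 and 191 CPM, were in controls 9 and 8, the libraries with the highest erythroid marker sums. In GK it was highest in GK 8 (131 CPM), where the erythroid sum was the lowest of that group at 3550 CPM. Control 10, with the lowest erythroid sum of all libraries (2164 CPM), stood at 137 CPM, above every GK library. The part of red cells in the Gpx1 values was not tested. Gpx2, the enzyme of gut epithelium, was not tested; it had 23 counts in GK, 17 of them in GK 9, and 1 in controls, so that its CPM was 21.8 times as high in GK, where counting error alone allows 3.54 to 898 (95% interval). Gpx3, Gpx7, Gstm7 and Gstt3 fell where fibroblast and smooth muscle markers also had negative median log2 fold changes. The ranges of both marker sums overlapped between the groups. Erythroid, macrophage and neutrophil markers, and mesothelial and epithelial markers, had negative medians as well. The median log2 fold change was -1.20 over 7 tested fibroblast markers, of which 2 fell, and -1.06 over 8 smooth muscle markers, of which 1 fell. The part of these cells in the result was not tested.

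Glutathione synthesis and recycling had no call, and 3 of 4 genes stood above 0 with a median of 0.39. Gsr, the reductase that restores glutathione, was the most abundant per length, with 123.4, 123.1, 62.1 and 133 CPM in GK 7 to 10, against 86.0, 81.1, 57.2 and 66.1 CPM in controls 7 to 10. GK 7, 8 and 10 lay above all controls and GK 9 among them (log2 fold change 0.61 ± 0.25, edgeR adjusted p = 0.160). Gss, which completes glutathione, had 53.8, 52.6, 24.3 and 68.7 CPM in GK 7 to 10, against 70.9, 66.1, 22.6 and 47.6 CPM in controls 7 to 10. The libraries numbered 9 were the lowest of both groups, and the difference was smaller than its error (-0.05 ± 0.40, edgeR adjusted p = 0.944). The catalytic subunit Gclc averaged 90.9 ± 38.2 CPM in GK and 50.6 ± 9.10 CPM in controls (edgeR adjusted p = 0.117), and the modifier subunit Gclm 23.5 ± 4.91 CPM in GK and 20.8 ± 2.33 CPM in controls (edgeR adjusted p = 0.534).

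Peroxiredoxins, thiol peroxidases of which most depend on thioredoxin, had no call among 6 tested genes, with 5 above 0 and a median of 0.36. Prdx5, of mitochondria and peroxisomes, had 246, 231, 93.6 and 286 CPM in GK 7 to 10, against 171, 245, 69.0 and 123 CPM in controls 7 to 10. The groups overlapped widely and the libraries numbered 9 were lowest in each (log2 fold change 0.49 ± 0.43, edgeR adjusted p = 0.485). Prdx2, a cytosolic enzyme that is plentiful in red cells, had 163, 169, 127 and 203 CPM in GK 7 to 10, against 109.8, 195, 165 and 95.3 CPM in controls 7 to 10. Among controls Prdx2 was highest in 8 and 9, which also had the highest erythroid marker sums. In GK it was lowest in GK 9, where the erythroid sum was the highest of that group at 7762 CPM. Its highest value of all libraries was in GK 10, at an erythroid sum of 6321 CPM. The part of red cells in it was not tested (log2 fold change 0.23 ± 0.25, edgeR adjusted p = 0.587). The mitochondrial Prdx3 averaged 162 ± 61.2 CPM in GK and 91.6 ± 49.1 CPM in controls (edgeR adjusted p = 0.267). Prdx4, of the secretory pathway, was the member with a negative value, averaging 12.1 ± 4.42 CPM in GK and 21.5 ± 6.39 CPM in controls (edgeR adjusted p = 0.129). Prdx1 and Prdx6 had log2 fold changes of 0.52 and 0.06, and the Prdx6 locus overlaps that of Slc9c2.

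The thioredoxin system had no call among 6 tested genes, with its reductases above 0 and Txnip, the protein that binds and inhibits thioredoxin, below. Txnip had the highest mean FPKM of the 59 genes and is known as a gene that glucose induces. It had 1384, 1612, 1388 and 2007 CPM in GK 7 to 10, against 2526, 2166, 1949 and 3307 CPM in controls 7 to 10. GK 7, 8 and 9 lay below all controls and GK 10 lay just above control 9, and the gene did not pass (log2 fold change -0.64 ± 0.26, edgeR adjusted p = 0.158); with the DESeq2 Wald test it passed at an adjusted p of 0.0355. In that DESeq2 fit Txnrd2 (adjusted p = 0.0192), Txnrd1 (0.0414), Cat (0.00321) and Gpx8 (0.00973) also passed beside the 7 genes named above. In it 16.2% of all genes passed (9.24% higher, 6.94% lower). Txn1, the cytosolic thioredoxin, had 39.3, 44.2, 21.7 and 62.7 CPM in GK 7 to 10, against 36.3, 56.3, 27.8 and 36.8 CPM in controls 7 to 10, and its groups overlapped (0.10 ± 0.32, edgeR adjusted p = 0.869). Txnrd2, the mitochondrial reductase, had 50.4, 42.3, 19.6 and 30.7 CPM in GK 7 to 10, against 17.5, 22.6, 8.38 and 15.6 CPM in controls 7 to 10. GK 9 lay below control 8 and the other 3 GK libraries above all controls, with a log2 fold change of 1.16 ± 0.36 that did not pass (edgeR adjusted p = 0.0831). The cytosolic reductase Txnrd1 averaged 91.9 ± 24.5 CPM in GK and 58.7 ± 9.13 CPM in controls (edgeR adjusted p = 0.102), and the mitochondrial thioredoxin Txn2 and the reductase Txnrd3 had log2 fold changes of 0.15 and 0.28.

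The remaining genes with a Txn prefix, which share the name of the thioredoxin fold more than a role in peroxide removal, had small differences. None of 10 tested genes passed, all log2 fold changes lay between -0.26 and 0.41, and the median was 0.04. Txndc5, a disulfide isomerase of the endoplasmic reticulum, had 88.5, 103, 85.6 and 82.9 CPM in GK 7 to 10, against 63.9, 89.8, 107 and 103 CPM in controls 7 to 10 (-0.01 ± 0.17, edgeR adjusted p = 0.966). Txnl1, a thioredoxin-like protein of the proteasome, had 69.0, 63.8, 56.5 and 63.6 CPM in GK 7 to 10, against 66.0, 58.1, 45.9 and 48.7 CPM in controls 7 to 10 (0.21 ± 0.14, edgeR adjusted p = 0.367). Txndc11 was the single gene of the 44 without a call whose groups did not overlap, at 33.6 to 35.0 CPM in GK and 26.0 to 33.3 CPM in controls (log2 fold change 0.23 ± 0.11, edgeR adjusted p = 0.227). Its locus overlaps those of Snn and a 7SK gene, and that of Txnl4a overlaps RGD1560212. Txndc2, which is known from sperm, had 2 counts in GK and 1 in controls and was not tested.

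Superoxide dismutases and catalase all stood above 0 in GK, with a median of 0.73, and none of the 4 passed with all libraries. Cat, the peroxisomal catalase, on chromosome 3 (93379874 to 93412058), had 1636, 1527, 737 and 1659 CPM in GK 7 to 10, against 785, 649, 441 and 701 CPM in controls 7 to 10. GK 9 lay among the controls and the other 3 GK libraries lay far above all controls (log2 fold change 1.11 ± 0.31, edgeR adjusted p = 0.0646). Sod3, the extracellular enzyme held in the vessel wall, had 859, 749, 489 and 910.2 CPM in GK 7 to 10, against 663, 649, 405 and 534 CPM in controls 7 to 10, again with GK 9 among the controls (0.42 ± 0.25, edgeR adjusted p = 0.319). The mitochondrial Sod2 averaged 458 ± 169 CPM in GK and 233 ± 91.6 CPM in controls (edgeR adjusted p = 0.161), and the cytosolic Sod1 132 ± 43.8 CPM in GK and 94.6 ± 27.2 CPM in controls (edgeR adjusted p = 0.343).

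**Figure D3:**
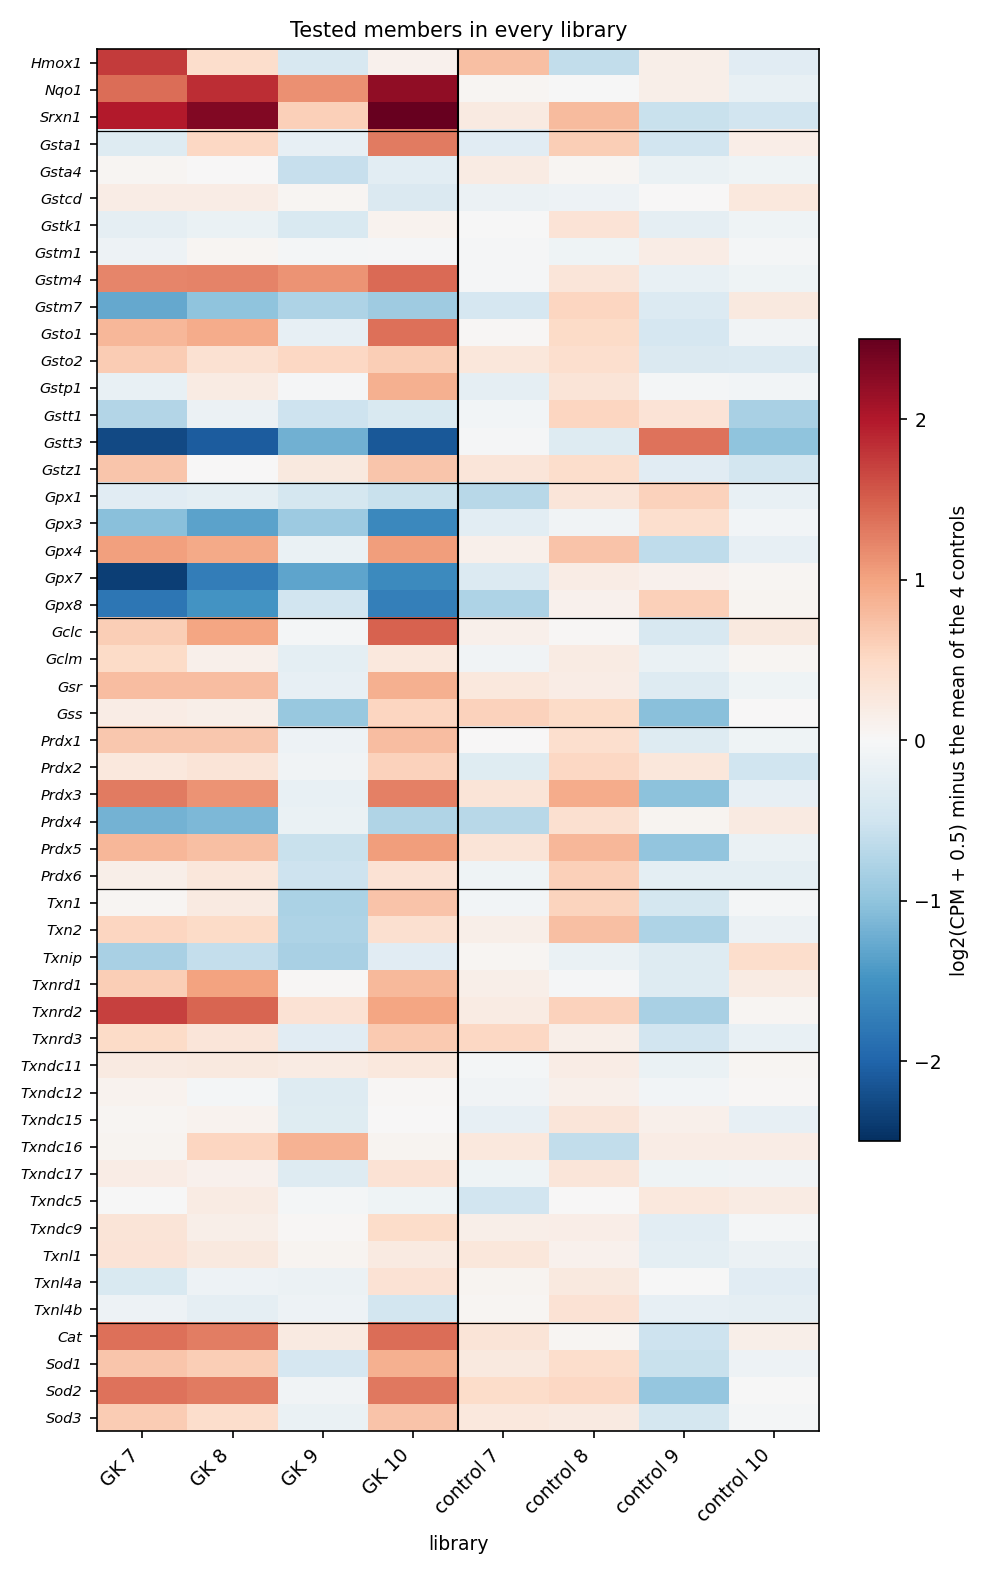
Log2(CPM + 0.5) of the 51 tested genes (down the page, by family) in each library (across, GK left of the black line), minus the mean of the 4 controls; red is above that mean and blue below. GK 9 is paler or bluer than GK 7, 8 and 10 in the rows of Cat, Sod2, Prdx3, Gpx4 and Gsr, and control 9 is blue in many of the same rows.

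GK 9, the library with skeletal muscle markers, differed from the other GK libraries in much of the gene set, as the heat map shows. It had the lowest GK value for 32 of the 51 genes, and control 9 had the lowest control value for 29. For 13 of the 51 (25.5%) GK 7, 8 and 10 lay above all controls and GK 9 did not, a pattern found in 11.5% of all genes tested; the reverse, below all controls in those 3 libraries alone, held for 2 of the 51 (3.92%, against 9.91% of all). Without GK 9, 17 of the 51 genes passed, 11 higher and 6 lower, where 22.1% of all genes tested passed (11.2% higher, 10.9% lower). To Nqo1, Srxn1 and Gstm4 came Gsto1, Gclc, Gsr, Prdx1, Cat, Sod2, Txnrd1 and Txnrd2, and to Gpx3, Gpx7, Gstm7 and Gstt3 came Gpx8 and Prdx4. Cat then had a log2 fold change of 1.33 ± 0.24 (edgeR adjusted p = 0.0104, 3 GK and 4 control libraries), Txnrd1 of 0.82 ± 0.16 (edgeR adjusted p = 0.0130), Gpx8 of -1.80 ± 0.31 (edgeR adjusted p = 0.00928) and Srxn1 of 2.53 ± 0.42 (edgeR adjusted p = 0.00854). The same 17 genes passed without both libraries numbered 9, where 18.7% of all genes tested did (9.74% higher, 8.91% lower).

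Markers of fat moved with the group, and a fat score, the mean log2 CPM of the adipocyte and brown adipocyte marker lists, was 9.12, 9.16, 8.16 and 9.22 in GK 7 to 10 and 8.02, 8.36, 7.43 and 7.50 in controls 7 to 10. GK 9 had the lowest score in GK and lay within the controls. With the score as a covariate, 5 of the 51 genes passed, 1 higher and 4 lower, where 7.23% of all genes tested did (4.5% higher, 2.73% lower), and 25 of the 51 fold changes took the other sign. Gstm4 stayed past the test at 0.95 ± 0.18 (edgeR adjusted p = 0.0272) and Gpx7 at -1.49 ± 0.35 (edgeR adjusted p = 0.0423). Nqo1 kept a log2 fold change of 1.23 ± 0.36 without passing (edgeR adjusted p = 0.0743), Srxn1 was at 0.15 ± 0.31 (edgeR adjusted p = 0.845), Cat at 0.18 ± 0.38 (edgeR adjusted p = 0.824) and Gpx3 at -0.76 ± 0.29 (edgeR adjusted p = 0.152). Prdx5, Prdx6 and Txn2 passed as lower in that fit, at -1.12, -0.82 and -1.22, and the median of the 51 genes was -0.39. Since the score and the group overlap in these libraries, the covariate also takes up part of any difference between the groups.

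**Figure D4:**
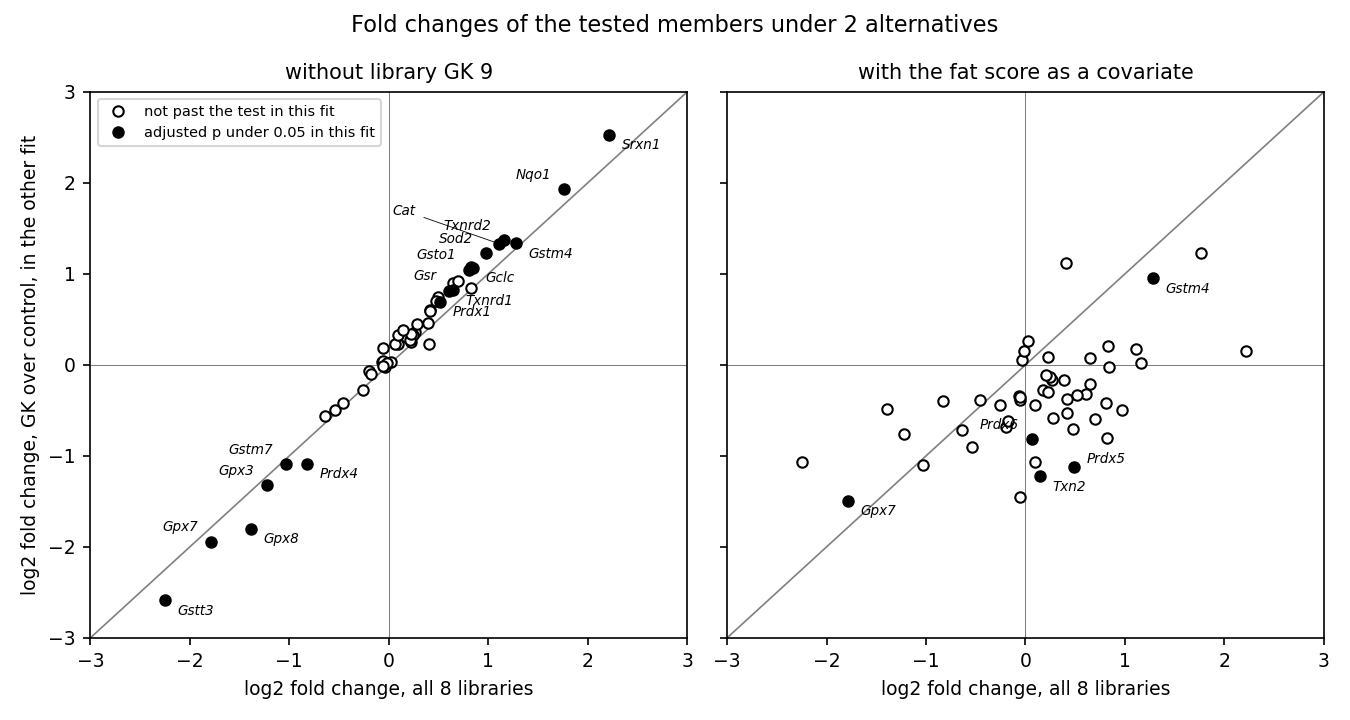
Log2 fold changes, GK over control, of the 51 tested genes with all 8 libraries (horizontal) against the fit without GK 9 (left) and the fit with the fat score as a covariate (right); filled points passed at an adjusted p under 0.05 in the second fit, and the grey diagonal marks equal values. Without GK 9 the points follow the diagonal and 17 are filled, while with the fat score 39 of 51 lie below 0 and 5 are filled.

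Levels were compared between genes in FPKM, the authors' length-scaled values. Txnip had the highest mean in both groups, at 546 ± 83.3 FPKM in GK and 959 ± 250 FPKM in controls (SD, n = 4 each). Cat ranked 2 in GK, at 502 ± 109 FPKM, and 4 in controls, at 266 ± 48.3 FPKM, while Gpx3 ranked 6 in GK, at 232 ± 82.0 FPKM, and 2 in controls, at 604 ± 207 FPKM. Sod3 ranked 3 in both, at 402 ± 46.7 FPKM in GK and 340.3 ± 40.2 FPKM in controls. In GK the levels of Gpx4 (241 ± 56.0 FPKM), Prdx5 (238 ± 70.4 FPKM), Gpx3 and Sod2 (202 ± 58.9 FPKM) lay within 1 SD of each other, as did Txnip and Cat, and Cat and Sod3, and so the order among these neighbours is not resolved. The genes that rose were of low level. Nqo1 stood at 15.3 ± 3.90 FPKM in GK and 5.20 ± 1.02 in controls, Gstm4 at 12.5 ± 1.35 in GK and 5.70 ± 0.373 in controls, and Srxn1 at 10.1 ± 4.41 in GK and 2.45 ± 1.14 in controls. Summed over families, glutathione peroxidases had 617 ± 72.6 FPKM in GK and 1016 ± 280 in controls, and superoxide dismutases with catalase 1290 ± 254 in GK and 872 ± 134 in controls.

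**Figure D5:**
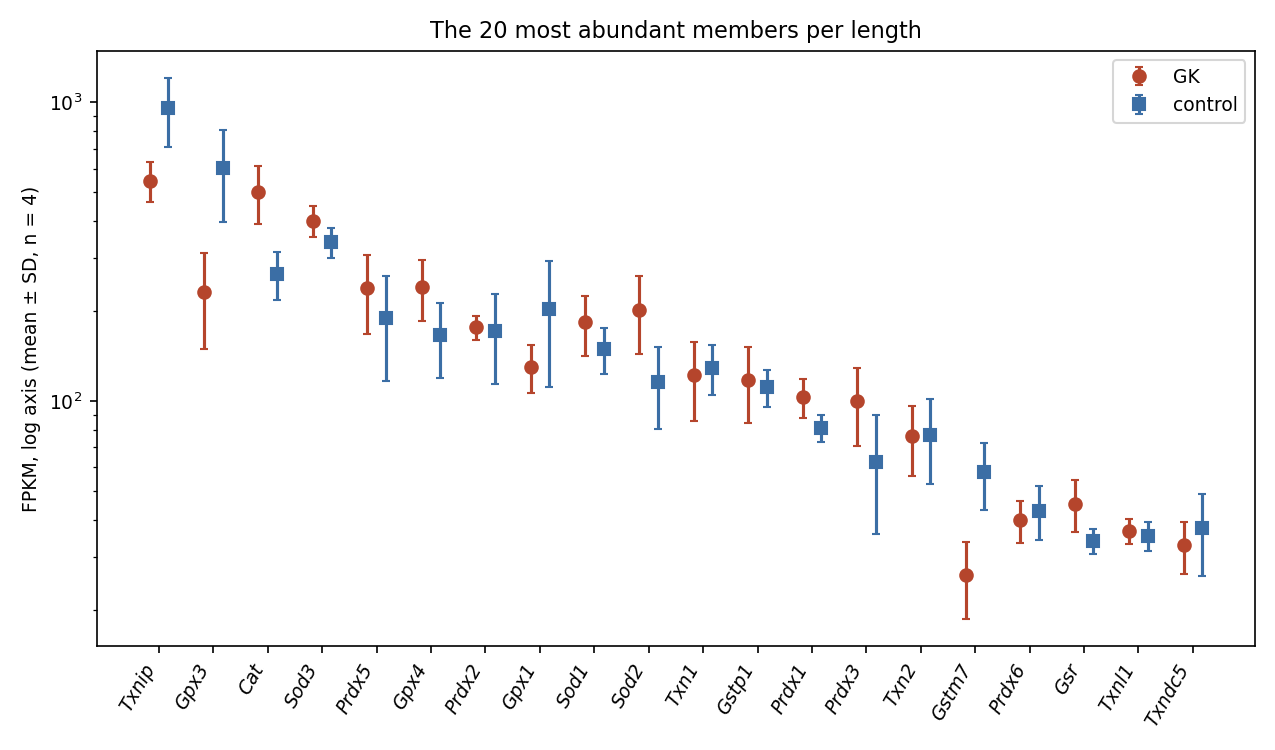
Authors' FPKM (vertical, log axis) of the 20 tested genes with the highest mean over both groups, GK left of control within each gene, as mean ± SD (n = 4 per group). The SD bars of Txnip, Gpx3 and Gstm7 lie lower in GK than in controls and those of Cat higher, and most other pairs of bars overlap.

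Neighbouring pathways had 5 calls, and each was lost in some alternatives. Their lists held 9 to 19 tested genes each, and the shares called were not tested against the 7.28% of all genes tested. Of 19 tested genes of the Nrf2 pathway and its other targets none passed, with a median of 0.23. The most abundant, Aox1, an aldehyde oxidase, and Fth1, the ferritin heavy chain, averaged 363 ± 135 and 614 ± 94.7 CPM in GK and 426 ± 327 and 469 ± 164 CPM in controls (edgeR adjusted p = 0.802 and 0.364). Of 19 tested genes of glutathione handling outside the families, Slc3a2, the heavy chain of the cystine and glutamate exchanger, rose alone. It had 131, 128, 113 and 121 CPM in GK 7 to 10, against 72.2, 70.3, 83.6 and 76.9 CPM in controls 7 to 10, with no overlap (log2 fold change 0.70 ± 0.11, edgeR adjusted p = 0.0149). It passed in 14 of 17 alternatives and not without GK 7, GK 8 or control 10 (edgeR adjusted p up to 0.0610). Among 9 genes of NADPH supply, G6pdx, the entry enzyme of the pentose phosphate pathway, rose, with 465, 543, 152 and 557 CPM in GK 7 to 10, against 172, 167, 102 and 84.7 CPM in controls 7 to 10. GK 9 lay below controls 7 and 8 (1.71 ± 0.42, edgeR adjusted p = 0.0479). It passed in 7 of 17 alternatives and was lost when any library except GK 9 was left out (edgeR adjusted p up to 0.140). It had a log2 fold change of 0.01 with the fat score described above.

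Of 18 selenoprotein and selenium-handling genes, Ept1, listed as Selenoi, rose and Sepp1, the selenium carrier selenoprotein P, fell. Sepp1 had 193, 219, 247 and 188 CPM in GK 7 to 10, against 377, 264, 476 and 365 CPM in controls 7 to 10 (log2 fold change -0.81 ± 0.20, edgeR adjusted p = 0.0487). Ept1 had 20.7, 21.7, 17.03 and 18.1 CPM in GK 7 to 10, against 12.6, 11.6, 13.3 and 13.3 CPM in controls 7 to 10 (0.61 ± 0.13, edgeR adjusted p = 0.0324). Neither gene overlapped between the groups. Ept1 passed in 9 of 17 alternatives and was lost when any library except GK 9 was left out (edgeR adjusted p up to 0.115). Sepp1 passed in 7 of 17 and was lost when any library except GK 9 and control 8 was left out (edgeR adjusted p up to 0.142). Among 14 tested enzymes that produce superoxide or hydrogen peroxide, Ncf1, an organising subunit of the phagocyte oxidase, fell, with 5.91, 5.35, 4.45 and 3.25 CPM in GK 7 to 10, against 12.9, 6.56, 16.6 and 10.7 CPM in controls 7 to 10 (-1.30 ± 0.31, edgeR adjusted p = 0.0431). It passed in 7 of 17 alternatives and was lost when any library except GK 9 and control 8 was left out, and also without both libraries numbered 9 (edgeR adjusted p up to 0.115 with 1 library left out). None of Ncf1, Sepp1, Ept1 and G6pdx passed with the fat score. Macrophage markers were also lower in GK, with a median log2 fold change of -0.86 over 9 genes, and their part in the Ncf1 result was not tested. None of 9 genes listed as methionine sulfoxide reductases and sulfiredoxin partners passed. Oxsr1, a kinase on that list that is named for oxidative stress, averaged 102 ± 3.88 CPM in GK and 118 ± 16.9 CPM in controls (edgeR adjusted p = 0.353). The reductase Msrb3 averaged 76.9 ± 23.7 CPM in GK and 140.2 ± 46.5 CPM in controls (edgeR adjusted p = 0.108).

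The deposited pair table links 22 long non-coding RNA (lncRNA) transcripts to 6 of the 59 genes, 4 in cis and 18 in trans. It lists only transcripts that the authors had called, so the number that passed here is no finding: 8 of 9 tested transcripts passed, all higher, where 2.74% of the 11683 lncRNA transcripts tested passed (1.63% higher). The trans links fell on 2 genes, 14 on Gsta5, which had 2 counts in all, and 4 on Gstz1. The cis transcript of Srxn1, NONRATT018730.2 (chromosome 3, 147607481 to 147614406), shares 5312 bases with the Srxn1 locus. It had 864, 980.3, 306 and 1148 CPM of lncRNA counts in GK 7 to 10, against 180, 280.4, 80.9 and 128 CPM in controls 7 to 10, so that GK 9 was again the lowest GK library (log2 fold change 2.30 ± 0.48, edgeR adjusted p = 0.0437). Whether counting used strand is not stated, and reads of the transcript and of Srxn1 cannot be told apart where they overlap. The cis transcript of Prdx3 shares 1336 bases with that gene's locus and had 402 counts in GK and 128 in controls (1.68 ± 0.42, edgeR adjusted p = 0.0741). The cis transcript of Gstm7 lies wholly within its locus, with 4 counts in GK, all in GK 9, and 61 in controls. That of Gpx4 begins 104 bases past the gene, with 87 counts in GK and 1 in controls; both were below the filter on low counts.

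In the authors' deposited table of gene comparisons, 8 of the 59 genes were called, 3 up and 5 down. These are the 7 genes that passed here and Gpx8, which in the authors' deposited table has a log2 fold change of -1.49 and a q-value of 0.0138. The share of all genes that the authors called is not given here, so their count of 8 is not read against a background. The table leaves Cat and Txnrd2 uncalled with q-values of 0.0202 and 0.0298, at log2 fold changes of 0.92 and 0.999971. The authors' deposited enrichment tables list glutathione metabolism with 10 called genes of 53 annotated (5 up and 5 down, q = 0.0219) and antioxidant activity with 11 of 61 (4 up and 7 down, q = 0.00746). They list glutathione peroxidase activity with 5 called genes of 19, all down (q = 0.0269), of which Gpx3, Gpx7 and Gpx8 are among the genes described here.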

How the data were processed

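Unnormalized counts of genes and of lncRNA transcripts were deposited by the authors, with FPKM for the same features, and log2 fold changes with p-values and q-values of their own comparison, per the file headers. Deposited enrichment tables give numbers of called and annotated genes per term. The submitters' processing notes name Bowtie 0.12.2 and the mouse builds mm8 and mm9 with no role; the rat build, annotation, aligner and strandedness are not given in the sources used here. Strain and group labels assigned the libraries; a source label that reads GK for all 8 was not used.

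Counts were filtered with filterByExpr, scaled by TMM factors and tested with edgeR's quasi-likelihood test (edgeR 4.0.16, R 4.3.3), with Benjamini-Hochberg adjustment over all genes tested. Alternatives used limma 3.58.1 and DESeq2 1.42.0, other scalings and filters, a fold minimum of 2, a replicate block, a fat score and omitted libraries. The scripts were tried on simulated data. Genes and lists were chosen with earlier results of these data known, the fat score and the omission of both libraries numbered 9 included. Named with every library's value were genes past the test, the 2 of highest mean FPKM per family, and uncalled genes outside the Txndc and Txnl groups with an absolute log2 fold change of at least 1; in neighbouring lists, up to 3 genes past the test or else the 2 of highest CPM. Others are named for their role, and Txndc11 was named after its values were seen. The 32 further columns of per-library values in the pair table were not used. Intervals cover counting error only.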

Additional observations from a re-analysis of the deposited data

Results flagged for a closer look

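Of 102 groups of 4 libraries checked among the tested genes, 11 had 1 library far from the other 3 relative to the range of the group. Chance flags about 1 in 20 groups. GK 9 was that library for 8 genes. It lay below the other GK libraries for Cat (737 CPM, others 1527 to 1659), Sod2 (204 CPM, others 529 to 556), Gpx4 (154 CPM, others 334 to 357), Gsr (62.1 CPM, others 123 to 133), Prdx1 (62.1 CPM, others 108 to 117) and Txn2 (54.6 CPM, others 124 to 136). It lay above them for Gpx8 (15.6 CPM, others 5.91 to 7.48) and Gstt3 (6.65 CPM, others 2.92 to 3.36). GK 9 is also the library with skeletal muscle markers at 15774 CPM and the lowest fat score in GK, and the part of either in these values was not tested gene by gene. Control 8 stood apart for 3 genes: it was low for Txndc16 (4.72 CPM, other controls 8.60 to 9.10) and high for Txndc17 (25.6 CPM, other controls 19.0 to 19.3) and Prdx6 (132 CPM, other controls 73.2 to 80.5).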

How the results depend on the processing

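With all libraries 3 of the 51 genes were higher in GK and 4 lower. The number higher was 6 with the DESeq2 Wald test, 1 with the fat score, 9 with the replicate block and 11 without GK replicate 9 or without both libraries numbered 9; leaving out 1 library each gave 2 to 11 higher and 1 to 6 lower. The number lower was 1 without GK 7, GK 8, GK 10 or control 10, and 2 without control 8 or with no filter on low counts. In these fits 0.974% to 22.1% of all genes tested passed when 1 library was left out, 16.2% with DESeq2, 17.3% with the block and 3.40% with no filter. The median log2 fold change of 0.23 was -0.39 with the fat score, and Prdx5 (-1.12), Prdx6 (-0.82) and Txn2 (-1.22) then passed in the other direction; leaving out 1 library gave 0.14 to 0.32. Of 17 alternatives, Gstm4 and Gpx7 passed in 17, Nqo1 in 16, Gpx3 in 12, Gstm7 in 10, Srxn1 in 8 and Gstt3 in 7. Of the tested lncRNA transcripts linked to these genes, 8 of 9 passed with all libraries, 16 of 18 with DESeq2 and 1 of 9 with the fat score. With limma-voom 4 of 9 passed, with no filter 4 of 22, and with 1 library left out 3 to 13. The authors had called all of these transcripts beforehand, so the numbers are no finding. Deviations of libraries of the same number from their group means correlated at 0.42 (7), 0.07 (8), 0.55 (9) and 0.02 (10). Control 8 correlated best with GK 10 (0.41). Whether the numbers mark a pairing or a batch was not tested. Fits with a library left out also rest on fewer libraries, and why the counts changed between fits was not tested. The filter on low counts left 8 genes untested.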
